A study of Mus musculus with 6 samples.

Results

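Slit, Robo and netrin genes were compared between cultured lymphatic endothelial cells (LEC) of a mouse tumour and of normal mouse skin. The 10 genes were taken by name: the ligands Slit2 and Slit3 with the receptors Robo1, Robo2 and Robo4, and the netrins Ntn1 and Ntn4 with the receptors Unc5b, Unc5c and Neo1. All 10 were among the 18193 genes that the Affymetrix array measured under a single name, through 22 probe sets, and the brightest probe set over the 6 arrays stood for each gene. Tumour LEC were taken from fibrosarcomas that formed in C57BL/6 mice after injection of T241/VEGF-C/GFP cells: T241 is a mouse fibrosarcoma line, VEGF-C drives lymphatic growth and GFP is a fluorescent label. Normal dermal LEC were from the tail skin of C57BL/6 females at 8 weeks of age, and no age or sex is given for the mice with tumours. Both were grown in endothelial medium, and LEC were selected on magnetic beads through LYVE-1, which binds hyaluronan on lymphatic endothelium, though the labels are not clear on the last steps for the tumour cells. There were 3 arrays of tumour LEC and 3 of normal LEC. By title the tumour arrays hold tumour cells and by source text LEC isolated from tumours, and the source text is followed here. Nothing says whether replicates were separate cultures or animals, so p-values measure the spread between these arrays, and the number of arrays limits the precision.

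Slits are secreted proteins that bind Robo receptors and turn growing axons and migrating cells away, and they bind heparan sulphate on cell surfaces. Netrins are secreted relatives of laminins that attract or repel growing axons and vessels, depending on the receptor. In blood vessels, Robo4 and Unc5b are the family members best known from endothelium: both restrain sprouting, and the Robo4 protein can bind Unc5b.

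The cells carried lymphatic markers in both groups. Lyve1 read 14.11 to 14.91 in tumour LEC and 13.65 to 14.32 in normal LEC on the log2 scale of the arrays, and Prox1, the regulator of lymphatic fate, read 7.77 to 8.92 in tumour LEC and 7.73 to 8.30 in normal LEC. Across the 12954 genes tested, the correlation was 0.961 to 0.987 within groups and 0.920 to 0.972 between them. Fibroblast markers were unequal between the groups: the median deviation of 18 markers from their means over the 6 arrays was -2.08 to -1.61 in tumour LEC, against 0.96 and 1.11 in normal replicates 2 and 3 and 4.01 in normal replicate 1. Pdgfra, a receptor of mesenchymal cells, read 4.66 to 5.74 in tumour LEC and 9.13 to 11.75 in normal LEC. Pdgfrb, a receptor of fibroblasts and pericytes, read 2.48 to 3.84 in tumour LEC and 7.87 to 10.78 in normal LEC. Of the 18 fibroblast markers 5 to 10 were at background on the tumour arrays and 0 to 3 on the normal arrays, and the log2 of their summed signal was 13.04 to 13.71 in tumour LEC and 14.05 to 15.92 in normal LEC. Leukocyte markers had a median deviation of 1.85 in tumour replicate 1, where tumour replicates 2 and 3 had -0.46 and -0.44 and the normal arrays -0.28 to 0.21. Since these were bulk cultures, fewer cells of a type and less RNA per cell cannot be told apart.

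None of the 10 guidance genes passed the adjusted test of tumour against normal LEC, yet their values were far from uniform. Unc5b and Robo4 were above all normal arrays on all 3 tumour arrays, and Slit2, Slit3, Robo1 and Ntn1 were below them. Ntn4 and Neo1 overlapped between the groups, and Robo2 and Unc5c read at background everywhere. Mean levels of Unc5b, Robo4 and Ntn4 were 2.79-fold to 2.84-fold higher in tumour LEC, and the farthest difference downwards was that of Slit2, 8.76-fold.

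A value was taken to be at background where it did not exceed the highest control probe set for absent bacterial RNA on its array, 3.48 to 3.71 on the tumour arrays and 3.40 to 3.47 on the normal arrays. The test was limma's moderated test, with p-values adjusted by Benjamini-Hochberg over all 12954 genes and a threshold of 0.05. Of the 9 genes tested, 0 passed, against 0.216% of all genes (28 genes, 0.0463% higher and 0.17% lower in tumour LEC), and Unc5c was too dim to be tested. Without adjustment 5 of the 9 had a p under 0.05, against 15.5% of all genes. Separation of all tumour from all normal arrays was seen for 3 higher genes (Unc5b, Robo4 and Robo2, the last at background) and 4 lower genes, as it was for 32.4% of all genes, 20.9% higher and 11.6% lower. A mean difference of at least 2-fold was found for 3 higher and 4 lower genes, against 10.6% of all genes, 3.84% higher and 6.76% lower. The median log2 difference of the 9 genes was -0.91 and that of all genes tested 0.028. The smallest adjusted p among the 9 was 0.0863, for Unc5b.

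**Figure D1:**
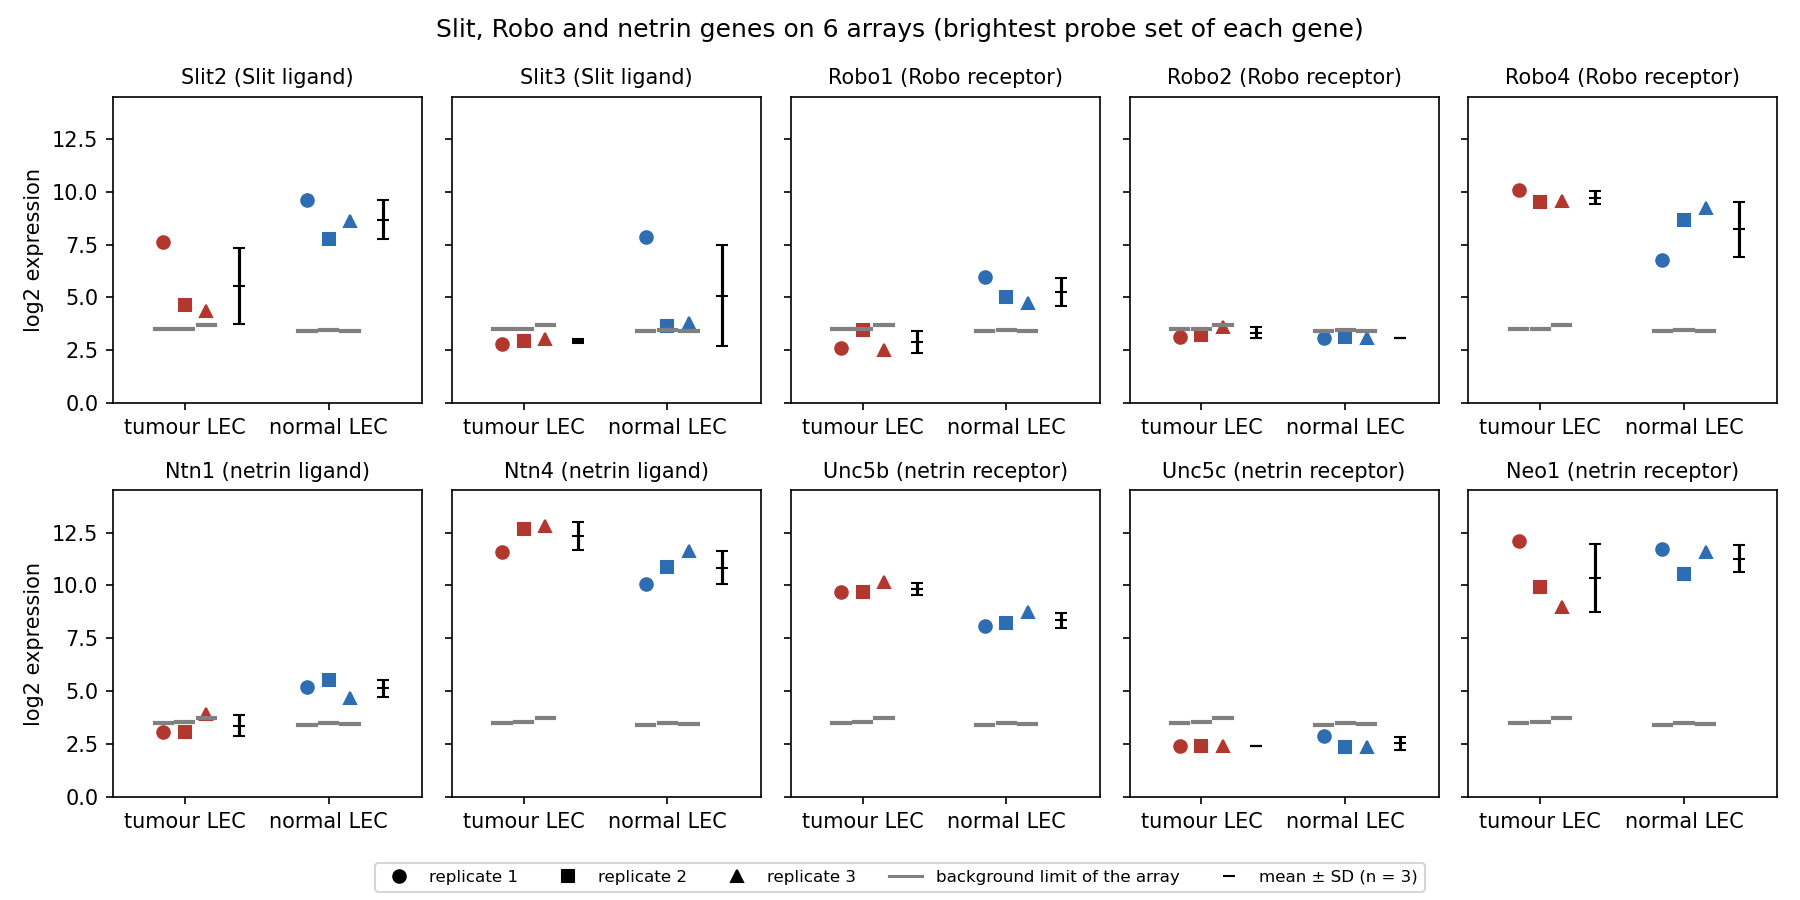
Log2 expression of the 10 guidance genes on each array, tumour LEC on the left and normal LEC on the right of each panel, with a symbol per replicate, the mean ± SD (n = 3) beside them and the background limit of each array as a grey line. Unc5b and Robo4 lie higher on the 3 tumour arrays than on any normal array, Slit2, Slit3, Robo1 and Ntn1 lie lower, and Robo2 and Unc5c stay at or under the limit.

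Slit2, the best studied Slit ligand, read 7.62, 4.63 and 4.35 in tumour replicates 1, 2 and 3, against 9.61, 7.78 and 8.61 in normal replicates 1, 2 and 3. All values were above background, and the groups were separated by a narrow gap, between tumour replicate 1 and normal replicate 2. The mean was 5.54 ± 1.81 in tumour LEC and 8.67 ± 0.92 in normal LEC (n = 3 each, ± SD), a log2 difference of -3.13 (SE 0.99, 95% interval -5.60 to -0.66, limma adjusted p = 0.245). The highest tumour value came from the array with the highest leukocyte markers, and the highest normal value from that with the highest fibroblast markers. Their part in the difference was not tested, although it was -4.17 without tumour replicate 1 and -2.66 without normal replicate 1. The other Slit2 probe sets, a pair, were at background on all arrays, at 2.40 to 2.62.

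Slit3, also a secreted ligand of Robo receptors, read 2.82, 2.96 and 3.03 in tumour replicates 1, 2 and 3, all at background, against 7.86, 3.64 and 3.78 in normal replicates 1, 2 and 3. A clear signal was present on normal replicate 1 alone, and the other normal arrays were 0.17 and 0.35 above their background limits. Against the background limit, Slit3 in tumour LEC was lower by at least 2.86-fold (measured means 2.94 ± 0.11 in tumour LEC and 5.09 ± 2.40 in normal LEC, n = 3 each, ± SD). The fitted log2 difference was -2.15 (SE 1.17, limma adjusted p = 0.431), and -0.77 without normal replicate 1. The bound rests on that array: it was 1.10-fold without normal replicate 1, 4.73-fold without normal replicate 2 and 4.51-fold without normal replicate 3. Fibroblast markers were highest on that array too, at a median deviation of 4.01, and their part in the Slit3 value was not tested.

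Both Slit genes hold a copy of the same microRNA within their annotated spans, on the same strand (RefSeq, GRCm38.p6). The Mir218-1 copy in Slit2 gives its mature strand from chr5:48223966-48223986, and the Mir218-2 copy in Slit3 from chr11:35616840-35616860, both on the plus strand. It is shown because it is a sequence feature that Slit2 and Slit3 share, printed 5′ to 3′ with its seed, bases 2 to 8, in capitals. The arrays gave no value for it.
mmu-miR-218-5p: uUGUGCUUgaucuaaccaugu

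The promoter window of Slit2 (RefSeq, GRCm38.p6, chr5:47982905-47983204, plus strand, 250 bases before to 50 after the start) is shown beside those of Robo4 and Unc5b, since these genes separated the groups in opposite directions with signal above background on all arrays. Short motifs were searched on both strands. For ETS factors the sequence CCGGAA was used, and other ETS sequences were not searched. For GATA factors the sequence was AGATAA. The GC box was searched as GGGCGG, and the E-box as CACGTG. The TATA box was searched as TATAAA. Capitals mark their matches in this and the later windows.
Slit2: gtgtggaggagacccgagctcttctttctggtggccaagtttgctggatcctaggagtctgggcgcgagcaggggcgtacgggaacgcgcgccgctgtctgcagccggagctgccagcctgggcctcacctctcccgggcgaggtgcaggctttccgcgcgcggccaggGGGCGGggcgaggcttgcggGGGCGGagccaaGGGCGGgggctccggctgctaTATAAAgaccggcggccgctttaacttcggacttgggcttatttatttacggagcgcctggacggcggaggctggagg
The Slit2 window held 3 GC boxes and 1 TATA box, and its GC content was 68.0%, where the median over 32817 mouse windows of this length was 52.7%. GC boxes were found in 35.6% and TATA boxes in 13.6% of those windows.

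Robo1, a receptor for Slits on axons and many migrating cells, read 2.63, 3.48 and 2.53 in tumour replicates 1, 2 and 3, against 5.98, 5.01 and 4.75 in normal replicates 1, 2 and 3. The tumour arrays were all at background and the normal arrays all above it, by 1.33 to 2.58. Against the background limit, Robo1 in tumour LEC was lower by at least 3.19-fold, with measured means of 2.88 ± 0.52 in tumour LEC and 5.25 ± 0.65 in normal LEC (n = 3 each, ± SD). The fitted log2 difference was -2.37 (SE 0.42, 95% interval -3.40 to -1.33, limma adjusted p = 0.0976). It was -2.00 and the bound 2.48-fold without normal replicate 1, the array with the most fibroblast marker signal, whose part was not tested. The other Robo1 probe sets, a pair, were at background on all arrays, at 2.15 to 2.51.

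Robo2, the close relative of Robo1, read 3.14, 3.23 and 3.61 in tumour replicates 1, 2 and 3, against 3.08, 3.11 and 3.07 in normal replicates 1, 2 and 3. All 6 values were at background, so the difference of 0.24 (SE 0.15, limma adjusted p = 0.480) is one between unmeasured levels, and no fold is given. The highest of them came from tumour replicate 3, whose background limit was also the highest, at 3.71.

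Robo4, the endothelial Robo, read 10.06, 9.49 and 9.57 in tumour replicates 1, 2 and 3, against 6.76, 8.68 and 9.23 in normal replicates 1, 2 and 3. The tumour arrays lay close together and the normal arrays were spread over 2.46, with normal replicate 1 far below the other normal arrays and normal replicate 3 only 0.26 below the lowest tumour array. The mean was 9.70 ± 0.31 in tumour LEC and 8.22 ± 1.29 in normal LEC (n = 3 each, ± SD), a log2 difference of 1.48 or 2.79-fold (SE 0.65, 95% interval -0.15 to 3.11, limma adjusted p = 0.354). Without normal replicate 1 the difference was 0.75. General endothelial markers were ordered alike: the median deviation of 13 such genes was 0.99, 0.35 and 0.45 in tumour replicates 1, 2 and 3, against -1.19, -0.40 and 0.11 in normal replicates 1, 2 and 3. Among them Pecam1 read 8.86, 8.08 and 8.59 in tumour LEC, against 5.59, 7.39 and 8.22 in normal LEC, and Cdh5, the cadherin of endothelial junctions, 11.52, 11.64 and 11.65 in tumour LEC, against 9.62, 10.79 and 11.37 in normal LEC. None of the 13 was at background on any array, and the log2 of their summed signal was 14.77 to 15.43 in tumour LEC and 13.60 to 14.56 in normal LEC. The part of endothelial content in the Robo4 value was not tested.

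The Robo4 promoter window (chr9:37401722-37402021, plus strand) had a GC content of 50.3% and held no match to any of the motifs searched.
Robo4: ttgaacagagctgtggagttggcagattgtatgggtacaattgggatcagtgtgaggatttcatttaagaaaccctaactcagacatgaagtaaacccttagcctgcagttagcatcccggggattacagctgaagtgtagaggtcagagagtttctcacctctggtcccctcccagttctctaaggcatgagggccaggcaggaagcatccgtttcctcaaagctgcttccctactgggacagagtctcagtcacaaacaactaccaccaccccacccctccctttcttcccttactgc

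Ntn1, the founding vertebrate netrin, read 3.09, 3.09 and 3.94 in tumour replicates 1, 2 and 3, against 5.21, 5.51 and 4.69 in normal replicates 1, 2 and 3. Tumour replicates 1 and 2 were at background, tumour replicate 3 was just above it, and every normal array was above all tumour arrays. The mean was 3.37 ± 0.49 in tumour LEC and 5.14 ± 0.41 in normal LEC (n = 3 each, ± SD), a log2 difference of -1.76 (SE 0.33, 95% interval -2.57 to -0.95, limma adjusted p = 0.107). Its difference without normal replicate 1 was -1.73. The median deviation of fibroblast markers was higher on all 3 normal arrays than on any tumour array, as Ntn1 was. The part of these markers in the difference was not tested. Its second probe set was at background on all arrays.

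Ntn4, a netrin of basement membranes that binds laminin chains, read 11.58, 12.67 and 12.79 in tumour replicates 1, 2 and 3, against 10.06, 10.85 and 11.62 in normal replicates 1, 2 and 3. The signal was strong on all arrays, and the groups overlapped, since tumour replicate 1 was 0.044 below normal replicate 3. The mean was 12.35 ± 0.67 in tumour LEC and 10.84 ± 0.78 in normal LEC (n = 3 each, ± SD), a log2 difference of 1.50 or 2.84-fold (SE 0.51, 95% interval 0.23 to 2.77, limma adjusted p = 0.267). A dimmer Ntn4 probe set differed by 1.90 and ordered the arrays within each group the same way. It read 4.93, 6.00 and 7.00 in tumour replicates 1, 2 and 3, against 2.27, 4.62 and 5.33 in normal replicates 1, 2 and 3. Its groups overlapped too, and normal replicate 1 was at background, so that difference rests in part on an unmeasured level. Both probe sets were read from the same RNA, so their shared order is a check of the probes and not a further replicate.

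Unc5b, the netrin receptor of endothelium, read 9.69, 9.68 and 10.18 in tumour replicates 1, 2 and 3, against 8.10, 8.21 and 8.76 in normal replicates 1, 2 and 3. Both groups were compact, and the lowest tumour array was 0.91 above the highest normal array. The mean was 9.85 ± 0.29 in tumour LEC and 8.36 ± 0.35 in normal LEC (n = 3 each, ± SD), a log2 difference of 1.49 or 2.81-fold (SE 0.24, 95% interval 0.90 to 2.09, limma adjusted p = 0.0863). Leaving out single arrays moved the difference between 1.33 and 1.69. A second Unc5b probe set also kept the groups apart, with 6.76, 6.98 and 6.92 in tumour LEC and 6.12, 5.73 and 6.51 in normal LEC, but its difference was smaller, at 0.76. With the mean of both probe sets the difference was 1.13. The median deviation of the general endothelial markers given beside Robo4 was likewise higher on every tumour array than on any normal array. Single markers such as Pecam1 overlapped between the groups. The median log2 difference of the 13 markers was 1.01, and their part in the Unc5b and Ntn4 values was not tested. Of all genes tested, 1.17% had a smaller p than Unc5b.

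The Unc5b promoter window (chr10:60831532-60831831, minus strand, printed 5′ to 3′ along the gene) had a GC content of 69.7%. It held 1 match to the ETS sequence searched and 3 GC boxes.
Unc5b: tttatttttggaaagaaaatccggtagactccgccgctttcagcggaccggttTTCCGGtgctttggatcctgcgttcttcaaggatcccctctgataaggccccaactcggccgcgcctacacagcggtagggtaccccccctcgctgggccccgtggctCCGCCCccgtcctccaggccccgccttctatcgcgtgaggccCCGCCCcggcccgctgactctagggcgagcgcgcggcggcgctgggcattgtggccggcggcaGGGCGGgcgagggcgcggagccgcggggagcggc
The sequence CCGGAA was found in 14.9% of all windows. Of the 11 windows of the 9 members with an entry, only that of Unc5b held it. GC boxes were found in 5 of the 11, those of Slit2, Slit3, Ntn4, Unc5b and Neo1. A match is a description of the letters and not of binding, and GC boxes were in windows of higher (Unc5b, Ntn4) and lower genes (Slit2, Slit3) alike.

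Unc5c, a netrin receptor best known from migrating neurons, read 2.39, 2.40 and 2.40 in tumour replicates 1, 2 and 3, against 2.89, 2.36 and 2.35 in normal replicates 1, 2 and 3. All values of both of its probe sets were at background, and its mean lay below the filter on low values, so it entered no test.

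Neo1, or neogenin, binds netrins and the repulsive guidance molecules. It read 12.12, 9.94 and 9.00 in tumour replicates 1, 2 and 3, against 11.71, 10.52 and 11.56 in normal replicates 1, 2 and 3. Tumour replicate 1 was the highest of all arrays and the other tumour arrays were below every normal array, so the groups overlapped. The mean was 10.35 ± 1.60 in tumour LEC and 11.26 ± 0.65 in normal LEC (n = 3 each, ± SD), a log2 difference of -0.91 (SE 0.85, 95% interval -3.02 to 1.20, limma adjusted p = 0.586). It was -1.79 without tumour replicate 1, the array with the highest leukocyte markers, and -0.23 without tumour replicate 3. This Neo1 probe set is of a kind that can match several transcripts. Another one, without that limit, gave 8.41, 6.22 and 5.40 in tumour LEC, against 8.42, 7.20 and 7.83 in normal LEC, again with tumour replicate 1 apart from the other tumour arrays. A dimmer one differed by -0.55, and the remaining pair were at background on most or all arrays. Leukocyte markers on tumour replicate 1 included Ptprc, the common leukocyte antigen, at 5.92, against 3.06 and 3.13 on tumour replicates 2 and 3 and 2.96 to 3.36 on the normal arrays. Cd68, another of these markers, was not confined to that array. It read 10.88, 7.90 and 4.82 in tumour replicates 1, 2 and 3, against 8.56, 8.45 and 9.57 in normal replicates 1, 2 and 3. Of the 11 leukocyte markers 4 to 7 were at background on the tumour arrays and 5 or 6 on the normal arrays. Their median therefore rests in part on unmeasured levels. The log2 of their summed signal was 12.52, 10.79 and 12.05 in tumour replicates 1, 2 and 3. In normal replicates 1, 2 and 3 it was 11.11, 10.85 and 12.16. The part of leukocyte markers in the Neo1 value was not tested.

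**Figure D2:**
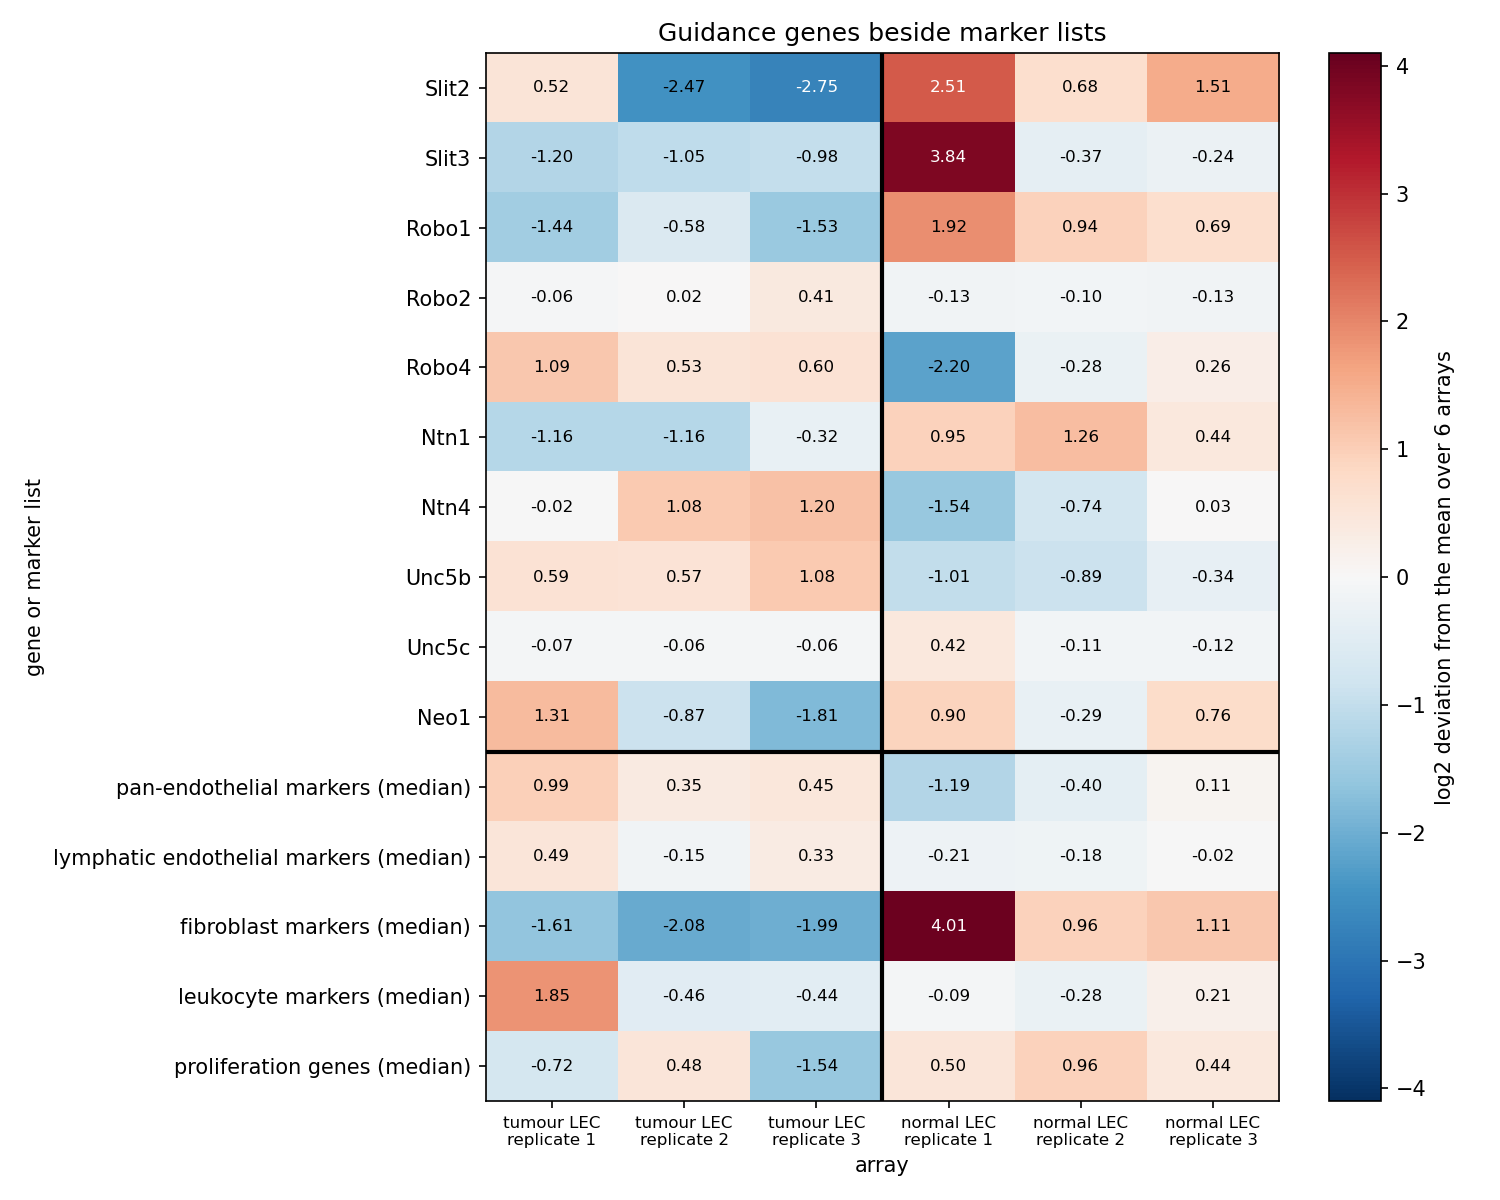
Deviation of each guidance gene from its own mean over the 6 arrays (log2 units, colour and printed value), with the 3 tumour LEC arrays left of the 3 normal LEC arrays, above the median deviation of 5 marker lists. Slit3 (3.84) and the fibroblast markers (4.01) are highest in normal replicate 1, where Robo4 (-2.20) and the pan-endothelial markers (-1.19) are lowest, and Neo1 (1.31) and the leukocyte markers (1.85) are highest in tumour replicate 1.

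Seen by role, the genes differed within each class. Of the ligands, Slit2, Slit3 and Ntn1 were below all normal arrays on the tumour arrays, and Ntn4 was higher in the mean. Among the receptors, Robo4 and Unc5b read higher on every tumour array than on any normal array, Robo1 lower, and Neo1 both higher and lower. The spread between replicates differed as well: the tumour values of Slit2 and Neo1 ranged over 3.27 and 3.12, against 1.83 and 1.19 in normal LEC, whereas the normal values of Slit3 and Robo4 ranged over 4.22 and 2.46, against 0.21 and 0.57 in tumour LEC. The interval of the difference excluded 0 for Slit2, Robo1, Ntn1, Ntn4 and Unc5b before adjustment, and included it for Slit3, Robo2, Robo4 and Neo1.

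**Figure D3:**
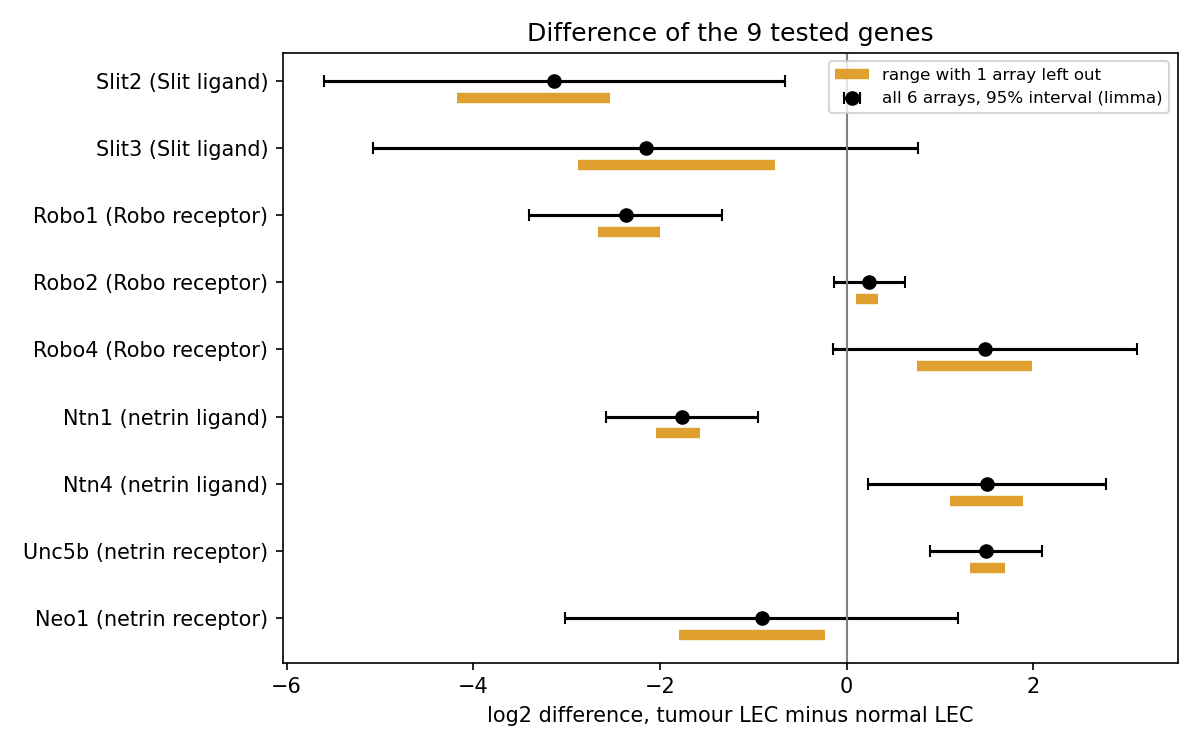
Log2 difference (tumour LEC minus normal LEC) of the 9 tested guidance genes with its 95% interval from limma (black), and the range of the difference when single arrays were left out (orange). The ranges stay on 1 side of 0 for all 9 genes, and those of Slit3 (-2.88 to -0.77) and Neo1 (-1.79 to -0.23) come nearest to it among the lower genes.

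A further 70 genes of these pathways were read from the same fit, of which 67 were on the array and 57 were tested. None passed the adjusted threshold (limma, Benjamini-Hochberg), against 0.216% of all genes, and 10 of the 57 had an unadjusted p under 0.05, where 15.5% of all genes did. Of these 1 was higher and 9 were lower in tumour LEC, beside 6.66% higher and 8.83% lower over all genes. Their median log2 difference was -0.065, beside 0.028 for all genes tested. Of the 57, tumour and normal arrays were fully apart for 4 higher and 10 lower genes. Over all genes the shares were 20.9% higher and 11.6% lower. Among the higher genes, Flrt1, Ntng1 and Srgap1 were at background on all arrays, and Ablim1 was above it on all 6. At background on all arrays were 4 of the 57, and 1849 of the 12954 genes tested.

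Cell surface genes had the smallest p-values among them. Sdc1, or syndecan-1, a heparan sulphate proteoglycan, read 8.17, 8.71 and 7.80 in tumour replicates 1, 2 and 3, against 10.81, 10.26 and 10.76 in normal replicates 1, 2 and 3. The log2 difference was -2.38 (SE 0.28, limma adjusted p = 0.0577), with a wide gap between the groups. Gpc1, or glypican-1, a heparan sulphate proteoglycan that binds Slit, read 3.95, 3.95 and 4.54 in tumour LEC and 6.22, 6.00 and 5.61 in normal LEC, a difference of -1.79 (SE 0.24, limma adjusted p = 0.0765). Of the 10 co-factor genes of this list, 4 were lower on all tumour arrays than on any normal array and 0 higher, against 11.6% lower and 20.9% higher over all genes, and the median difference of the 10 was -0.42.

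Of the 6 other receptors tested, Eva1c and Lrig3 had the smallest p. Eva1c, whose relative in Caenorhabditis elegans is a co-receptor for Slit, read 3.78, 2.86 and 2.79 in tumour LEC, against 6.29, 5.31 and 5.70 in normal LEC. Tumour replicates 2 and 3 were at background, so the fitted difference of -2.62 (SE 0.37, limma adjusted p = 0.0778) rests in part on unmeasured levels. Lrig3, a membrane protein with leucine-rich repeats, differed by -1.74 (SE 0.65, limma adjusted p = 0.296), also with tumour replicates 2 and 3 at background. Among the 5 other ligands tested none had an unadjusted p under 0.05, and Rgmb, a ligand of neogenin, and Flrt3, a binding partner of Unc5b, differed by -0.60 (SE 0.32) and -0.59 (SE 0.32).

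Genes of the signalling chain inside the cell showed little difference on balance, with medians of 0.00 over 19 genes of Robo signalling and 0.10 over 17 of netrin receptor signalling. Enah, an actin regulator of the Ena/VASP family that binds Robo receptors, lay far from them, at 6.01, 4.39 and 2.66 in tumour replicates 1, 2 and 3, against 9.71, 7.69 and 8.15 in normal replicates 1, 2 and 3. The tumour arrays were spread widely but all lay below the normal arrays, and tumour replicate 3 was at background, so the fitted difference of -4.17 (SE 0.97, limma adjusted p = 0.159) includes an unmeasured level. Abl1, a tyrosine kinase that acts on Robo, differed by -0.74 (SE 0.20, limma adjusted p = 0.200). Of the netrin receptor list, Ablim1, an actin-binding protein whose relative in Caenorhabditis elegans acts in netrin signalling, read 10.01, 8.41 and 8.38 in tumour LEC and 7.46, 6.38 and 7.37 in normal LEC, a difference of 1.87 (SE 0.55, limma adjusted p = 0.226). Dapk1, a kinase that binds Unc5 receptors, differed by 0.61 (SE 0.31, limma adjusted p = 0.409). For Sdc1, Gpc1, Eva1c and Enah the top normal value came each time from normal replicate 1, which also had the most fibroblast marker signal, and the part of fibroblast content was not tested.

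**Figure D4:**
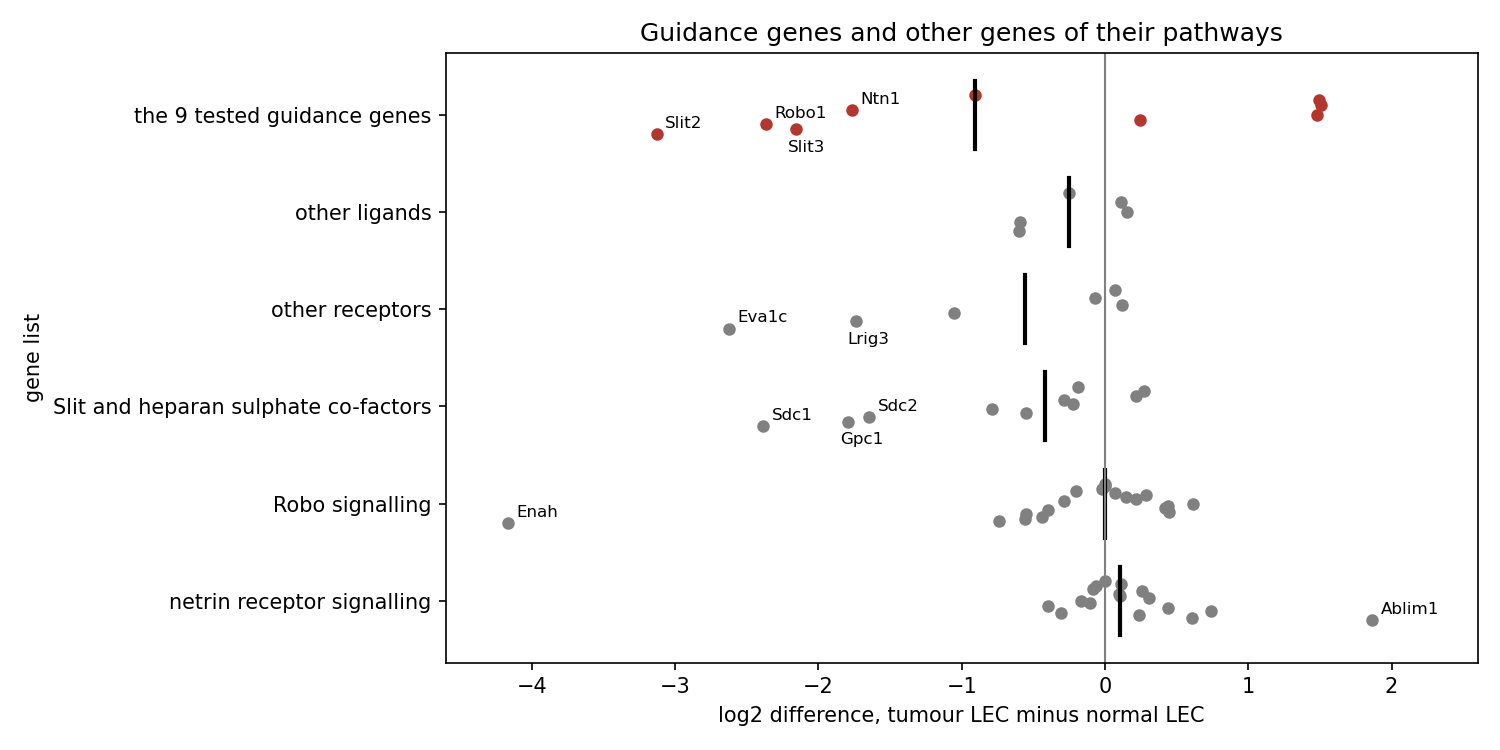
Log2 difference (tumour LEC minus normal LEC) of the 9 tested guidance genes (red) and of 57 other genes of their pathways in 5 lists (grey), with the median of each list as a black bar. The signalling lists are centred near 0 (0.00 and 0.10), and the fitted difference of Enah (-4.17), at background on 1 tumour array, lies farthest from it.

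For the 3 guidance genes with the largest differences, the genes with the highest Pearson correlation over the 6 arrays were looked up. The search covered the 10483 other tested genes above background on at least 3 arrays. Slit2 was most like Apbb1, Syne2 and Ubr2 (Pearson r 0.998, 0.997 and 0.991). Robo1 was most like Rbpj, Rplp2 and Timp1 (0.999, 0.996 and 0.994), and Slit3 was most like Rbm20, Zfp469 and Crispld2, each at 0.996. With 6 arrays such values are common: 104, 124 and 92 genes exceeded 0.95 for Slit2, Robo1 and Slit3. A correlation takes no account of the size of a change: Rplp2 read 15.02 to 15.21, against 2.53 to 5.98 for Robo1. The tumour values of Robo1 and Slit3 were all at background, so their correlations rest in part on unmeasured levels. That of Slit3 also leans on normal replicate 1, its only array with a clear signal. Crispld2 shows the Slit3 pattern, with 3.10, 3.25 and 3.03 in tumour LEC against 8.06, 4.06 and 3.76 in normal LEC, its high value again in normal replicate 1.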

How the data were processed

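Each of 6 Affymetrix arrays gave values for 45101 probe sets, from 50 ng of total RNA per array, per the labels' protocols. The values that the authors deposited are log2 levels, 1 per probe set. RMA and GCRMA are the tools in the submitters' processing notes, and which of the pair gave these values is not given in the sources used here. Since GCRMA pulls low signals to a floor, a difference between low values is hard to interpret. The median log2 value of an array was 3.15 in tumour replicate 3 and 2.99 to 3.02 on the others.

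Names of probe sets are those of GEO's platform annotation, and symbols were checked through Entrez identifiers in a RefSeq table of GRCm38.p6, where 0 changed. Of the probe sets 34945 had 1 gene. Those with a mean above the 40th percentile (2.71) were kept, and the brightest per gene gave 12954 genes for limma 3.58.1 in R 4.3.3 (lmFit, eBayes without trend, 2-sided). Background came from 27 control probe sets for absent bacterial RNA. For a single gene the smallest exact permutation p of this design is 0.1, and no such test was made. The fit was tested on simulated data.

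The guidance genes, the pathway and marker lists, the motifs and the tests were chosen with earlier results of these data known. Named were all 10 guidance genes, and from each list of other pathway genes those past the threshold or else the pair with the smallest p. Marker genes named were the first of their lists, with none given for the keratinocyte list and the Schwann cell and neuron list. Correlated genes were named by Pearson correlation. Other marker lists gave median differences of -0.013 (blood endothelial), 0.13 (pericyte and smooth muscle), 0.047 (keratinocyte), 0.11 (Schwann cell and neuron), 0.14 (lymphatic endothelial) and -1.36 (proliferation). At background per array were 3 to 6 of 10 blood endothelial and 6 or 7 of 10 pericyte and smooth muscle markers. So were 4 or 5 of 7 keratinocyte and 5 of 6 Schwann cell and neuron markers. The medians of the blood endothelial, pericyte and smooth muscle, keratinocyte, and Schwann cell and neuron lists therefore do not describe cell content. Of the lymphatic endothelial list 1 of 10 markers was at background on each array, and of the proliferation list 0 of 13. Of the blood endothelial list, Plvap read 11.45 to 13.49 in tumour LEC and 11.17 to 12.10 in normal LEC, and Flt1 was at background on all arrays. The log2 of the summed signal of that list was 12.37 to 13.91 in tumour LEC and 12.32 to 13.06 in normal LEC. Of the pericyte and smooth muscle list, Cspg4 was at background in tumour LEC and read 5.38 to 8.11 in normal LEC, and Acta2 read 10.66 to 13.28 in tumour LEC and 12.22 to 13.96 in normal LEC. Of the proliferation list, Mki67 read 8.37 to 12.42 in tumour LEC and 12.44 to 13.08 in normal LEC. Top2a read 8.90 to 11.60 in tumour LEC and 11.77 to 12.08 in normal LEC. Promoter windows and microRNA sequences are those of RefSeq, GRCm38.p6, and 9 of the 10 genes had a window. Genes were compared by 15 alternative settings.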

Additional observations from a re-analysis of the deposited data

How the results depend on the processing

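Each of the 9 tested guidance genes kept the direction of its difference in every alternative that gave it a value, 15 settings for 7 genes and 14 for Robo2 and Slit3, which were too dim for the 60th percentile filter. The count of guidance genes past the threshold was 0 in 14 settings and 2 with array weights, Unc5b at 1.30 (adjusted p = 0.0425) and Ntn1 at -1.93 (adjusted p = 0.0327). Over all alternatives the adjusted p of Unc5b ran from 0.0425 to 0.247 and that of Ntn1 from 0.0327 to 0.272. The weights were 3.72 for tumour replicate 2 and 0.31 to 1.60 for the others, so that fit leans on 1 tumour array. The pathway genes past the threshold numbered 3 with the 60th percentile filter (Sdc1, Gpc1 and Eva1c), 4 with array weights (Sdc1, Enah, Gpc1 and Eva1c), 1 with the replicate number as a block (Eva1c) and 0 elsewhere. The count over all genes was 28, and 10 with no filter, 97 with the 60th percentile filter, 385 with array weights, 46 with the replicate block and 4 to 82 when single arrays were left out (4 without tumour replicate 3, 6 without normal replicate 3, 9 and 11 without tumour replicates 1 and 2, 82 without normal replicate 1). Some of these fits hold fewer arrays or another number of genes, and the cause was not tested otherwise. Same-numbered arrays deviated from their group means with correlations of 0.19, 0.33 and -0.0038, and the other pairs of a tumour and a normal array with -0.37 to 0.13. Whether same-numbered arrays share more than a number cannot be told from these values. The block changed no call of a guidance gene. Unc5c gave -0.13 without the filter (adjusted p = 0.598). Signal at or near background limits Slit3, Robo1, Robo2, Ntn1 and Unc5c, and of the pathway genes Eva1c, Lrig3, Enah and Mcam. Flrt1, Ntng1, Dcc and Srgap1 were at background on all arrays. Gpc1, at 3.95, 3.95 and 4.54 in tumour replicates 1, 2 and 3, was above their background limits of 3.48, 3.53 and 3.71.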
